A study of Homo sapiens with 4 samples.

Results

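SERBP1, EIF4H, CYB5R4, SRPK1, TMEM183A, ATP1B3, AKIRIN1, PEA15 and IDS were described here as 9 genes, of 64252 gene identifiers in the table and 17461 tested, that were strongly lower in cells with a hairpin against ELOVL5 and that share a short motif in their 3′ untranslated region (UTR). They were chosen by their log2 fold change between the hairpins and by the motif, so their fold changes and motif sites are given as a description, with no test. RNA was sequenced from J.gamma1 cells, a Jurkat derivative from human T-cell acute lymphoblastic leukemia that lacks the phospholipase PLCG1. The first group carried a short hairpin RNA against ELOVL5, an elongase of polyunsaturated fatty acids (shELOVL5, 2 libraries), and the other a control hairpin (shNC, 2 libraries), so the loss of PLCG1 protein is shared by both groups. The labels name a single hairpin against ELOVL5, whose sequence is not given in the sources here. Nothing states that replicates came from separate cultures, and the p-values therefore cover just the spread among these libraries, which may be technical.

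A short hairpin RNA is cut by Dicer into a small RNA, 1 strand of which is loaded into an Argonaute protein and guides it to matching transcripts. A fully matched transcript is cut. Guides of this kind can also lower transcripts that pair only with the seed, a short stretch near the guide's 5′ end, and such sites act mostly from 3′ UTRs, as they do for microRNAs. The 9 genes have unrelated roles in messenger RNA binding, translation, splicing, electron transfer, ion transport, signalling and the lysosome.

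Total counts were 17338719 and 16311139 in the shELOVL5 libraries and 17246603 and 16254002 in the shNC libraries. ELOVL5 (ENSG00000012660) had 71.8 and 70.0 CPM (counts scaled to library size and by TMM) in the shELOVL5 libraries, against 342 and 353 CPM in the shNC libraries. Its log2 fold change was -2.29 (SE 0.0486, adjusted p = 1.79e-09, edgeR quasi-likelihood test with Benjamini-Hochberg adjustment over all tested genes, which applies to every adjusted p below). PLCG1 transcripts were still counted, and its log2 fold change, -0.12, missed the threshold (adjusted p = 0.0832), though it passed without shNC replicate 1 (adjusted p = 0.0364). Replicates differed by more than sampling noise, with a chi-square per degree of freedom of 5.51 for shELOVL5 and 5.93 for shNC, so each library was counted as 1 replicate. The summed level of 15 T cell markers was 2147 to 2199 CPM in shELOVL5 and 2173 to 2194 CPM in shNC. Of these 15 markers 7 were lower and 3 higher, where 11.2% of tested genes were lower and 9.22% higher. The near-equal sums thus do not mean that single markers were unchanged. Summed B cell markers (6 genes) were 39.3 to 41.9 CPM in shELOVL5 and 55.0 to 62.4 CPM in shNC, and the myeloid, erythroid and epithelial or fibroblast lists summed to at most 13.9 CPM, with LYZ, CSF1R, HBB, ALAS2, EPCAM and COL1A2 among the genes at 0 in every library. The part of these markers in the results was not tested, and in bulk RNA fewer cells of a type and less RNA per cell cannot be told apart.

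The shared motif is TCCAAACA. Its core is CCAAAC, the hexamer with the lowest difference in mean log2 fold change between genes with and without it, of 4096 compared. Only the sense strand of the 3′ UTR was read. The 8 bases join the 2 heptamers with the lowest differences, TCCAAAC and CCAAACA. The genes were listed from an earlier scan of this table, whose motif is not named in the sources here. Whether that motif was this one was not tested. Each of the 9 genes holds the whole 8-base motif in its longest annotated 3′ UTR, a property of 398 of 10125 protein-coding genes compared (3.93%). The sequences below show the site in each gene with 11 bases on each side, with the motif in capitals, so that the sites and their flanks can be compared. They are printed 5′ to 3′ on the transcript strand and were read from GENCODE 29 transcripts on GRCh38.
SERBP1: tctaactcattTCCAAACAtgtaccatgtt
EIF4H: aagaatggaatTCCAAACActtaacacatt
CYB5R4: ttattaagtgaTCCAAACAtttttttgtgt
SRPK1: tctgattctttTCCAAACAgtcccctgctt
TMEM183A: ctctttgaatcTCCAAACAaggaagtttca
ATP1B3: gaacacctgatTCCAAACAtgtaggatggg
AKIRIN1: gtgatagatttTCCAAACAaaaatacctgg
PEA15: ttgctacatagTCCAAACAaaaaagaaggc
IDS: gggctagttaaTCCAAACAtgcatcaacaa

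These windows lie in 3′ UTR exons. The SERBP1 window is chr1:67411335-67411364 on the minus strand, and its motif starts at base 1854 of a 5397-base 3′ UTR. In EIF4H the window is chr7:74196987-74197016 (plus strand) and the motif starts at base 1690 of 1793, close to the end of the transcript. CYB5R4 has it at chr6:83960346-83960375 (plus strand), base 479 of 7546. The SRPK1 window is chr6:35834343-35834372 (minus strand, base 943 of 2338), and that of TMEM183A is chr1:203023366-203023395 (plus strand, base 337 of 1808). For ATP1B3 it is chr3:141925935-141925964 (plus strand, base 245 of 783), and for AKIRIN1 chr1:39004279-39004308 (plus strand, base 235 of 2004). PEA15 holds it at chr1:160214738-160214767 (plus strand, base 1263 of 1890) and IDS at chrX:149482608-149482637 (minus strand, base 120 of 5756). The site thus lies anywhere from the start to the end of the 3′ UTR.

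**Figure D1:**
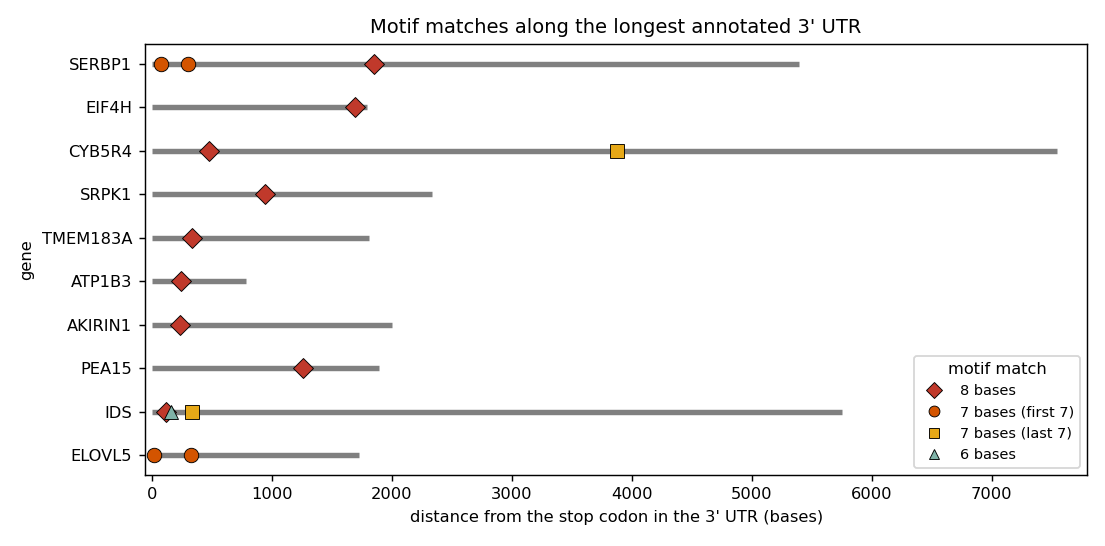
Motif matches along the longest annotated 3′ UTR of the 9 genes and of ELOVL5, with the distance from the stop codon in bases on the x axis and 1 gene per row. Diamonds are whole 8-base matches, and the other symbols are matches of 7 or 6 bases. Each of the 9 genes has 1 diamond, from base 120 in IDS to base 1854 in SERBP1, and ELOVL5 has none in its 3′ UTR of 1729 bases.

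SERBP1 has a pair of further partial matches in the same 3′ UTR, at bases 71 and 301, each of which holds the first 7 bases of the motif. CYB5R4 holds a second whole motif in its coding sequence, at base 518 of 1566, and a 7-base match at base 3878 of its 3′ UTR. IDS has a 6-base match at base 162 and a 7-base match at base 330. The targeted gene ELOVL5 has no whole motif but holds its first 7 bases at 3 places, 1 in the coding sequence and 2 in the 3′ UTR. These are shown next to the further sites of SERBP1 and CYB5R4 because they give the targeted gene's nearest matches to the motif, again with the matching bases in capitals.
SERBP1, base 71 of the 3′ UTR: tgcttaaggatTCCAAACgactaagaaatt
SERBP1, base 301 of the 3′ UTR: aaatatgcattTCCAAACttgaaatatagg
CYB5R4, coding sequence: ctatgattggtTCCAAACAgactctttagt
ELOVL5, coding sequence: ggtactacttcTCCAAACtcatagaattta
ELOVL5, base 20 of the 3′ UTR: aattgaaacccTCCAAACcacgtcatctga
ELOVL5, base 327 of the 3′ UTR: aaacactgtaaTCCAAACttttttttttaa

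The ELOVL5 windows are chr6:53275213-53275242 in the coding sequence, starting at base 436 of 981, and chr6:53269089-53269118 and chr6:53268782-53268811 in the 3′ UTR, all on the minus strand. The CYB5R4 coding window is chr6:83919397-83919426. Not every annotated protein-coding transcript of the 9 genes carries the site. Only protein-coding transcripts with an annotated stop codon, a complete end and a 3′ UTR were counted. Among these, the whole motif was in each transcript of EIF4H (2 of 2), SRPK1 (3 of 3), TMEM183A (1 of 1), ATP1B3 (2 of 2) and AKIRIN1 (4 of 4). It was in 2 of 4 transcripts of SERBP1, 1 of 2 of CYB5R4, 2 of 3 of PEA15 and 1 of 3 of IDS, while all 4 SERBP1 transcripts hold the 7-base match. Counts were deposited per gene, so which 3′ UTR these cells used was not measured.

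The flanks of the sites held more A and T than G and C at the median. The whole 3′ UTRs of the 9 genes were themselves only 34.6% (SERBP1) to 50.9% (EIF4H) G and C, and whether the flanks differ from them was not tested. Over the 22 flanking bases, A and T made up a median of 63.6% in the 9 genes (50% to 81.8%) and 59.1% over the first site of all 398 genes with the motif. The base just before the motif was T in 5 of the 9 genes and in 157 of the 398 (39.4%). The 3′ UTRs of the 9 genes had a median length of 2004 bases (783 to 7546), against 3306 bases in the other 389 genes with the motif and 1437 bases in all genes compared. The 3′ UTRs of the listed genes were thus shorter, at the median, than those of the other motif holders.

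The seed that would pair with the first 7 bases of the motif reads GUUUGGA, 5′ to 3′. Among 2370 mature human microRNAs from RefSeq (GRCh38.p14), none carries it at bases 2 to 8, and 1 matches it at bases 2 to 7. In that microRNA the capitals mark its own seed, bases 2 to 8, of which the last is outside the match.
hsa-miR-6740-5p: aGUUUGGGauggagagaggaga

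That microRNA is encoded on chromosome 1, and its level was not analysed here. Whether the hairpin's guide carries the seed was not tested, since no sequence of it is given.

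The earlier scan used these same fold changes, and the core hexamer was chosen from them again here. The values of the motif's match classes below are thus a description of this table and not independent support for it. The hexamer CCAAAC at the core of the motif had the lowest difference of all 4096. The 3186 genes that hold it in the 3′ UTR (31.5%) had a mean log2 fold change of -0.105, against 0.00678 in genes without it, a difference of -0.112. The next hexamer, TACCGC, reached -0.0607, and the highest difference of any was 0.0626. The 9 genes add little to this: without them the difference was -0.109, an alternative chosen after seeing the data. All 9 hold CCAAAC, which was 1 of 22 hexamers present in all 9 of these 3′ UTRs.

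**Figure D2:**
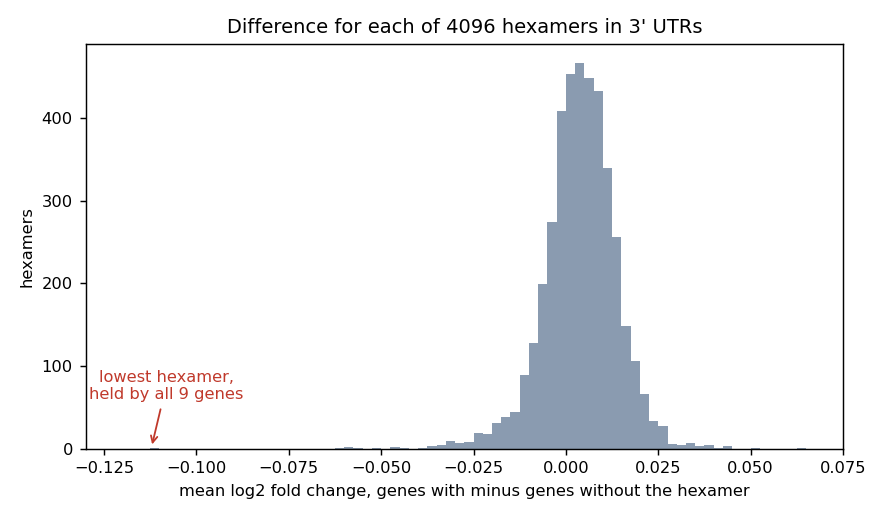
Histogram of 4096 hexamers by the mean log2 fold change (shELOVL5 over shNC) of genes with the hexamer in the 3′ UTR minus that of genes without it, over 10125 genes. The hexamer at the core of the shared motif stands alone at -0.112, and the next is at -0.0607.

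Extending the core by T before it or by A after it gave lower values. Genes with TCCAAAC (1098) differed from the rest by -0.179, and genes with CCAAACA (1328) by -0.160. When each gene was placed by its longest match, the classes were ordered by the length of the match. The 398 genes with the whole motif had a mean log2 fold change of -0.268 and a median of -0.20. The means were -0.143 for 700 genes with the first 7 bases but not the whole motif and -0.112 for 786 with only the last 7. They were -0.0319 for 1302 with 6 bases and 0.00678 for 6939 with none. Genes that hold the first 7 and the last 7 bases at separate places were counted with the first 7. Each shELOVL5 library, set against the shNC mean, gave -0.268 for the whole motif, against 0.00582 and 0.0083 for genes with no match.

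Counts of genes past the threshold were ordered in the same way. Of the genes with the whole motif, 155 (38.9%) were lower and 19 (4.77%) higher, against 940 (13.5%) lower and 975 (14.1%) higher among genes with no match. Over all genes compared, 16.7% were lower and 12.9% higher. Genes that passed and were at least 2-fold lower numbered 22 with the whole motif (5.53%) and 28 without a match (0.404%). Of those 22, 17 were not among the 9 listed genes. Mean fold changes also became lower with the number of CCAAAC matches, being -0.082 with 1 match (2135 genes), -0.129 with 2 (702 genes) and -0.201 with 3 or more (349 genes). The 3′ UTRs of those groups also lengthened, with medians of 2356, 3638.5 and 5866 bases, against 997 bases with no match, and the part of length in this order was not tested. For genes with against genes without the hexamer, whatever the number of matches, the difference was -0.115 after a linear adjustment for 3′ UTR length and GC content.

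**Figure D3:**
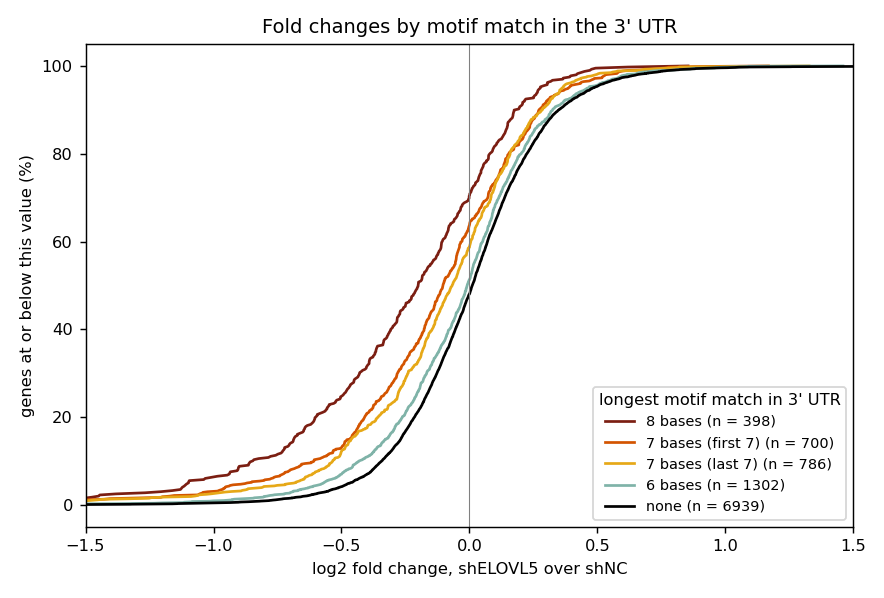
Cumulative share of genes (y axis, %) by log2 fold change, shELOVL5 over shNC (x axis), for 5 classes of genes by the longest motif match in the 3′ UTR. The curve of the 398 genes with all 8 bases lies farthest left, the curves of 7-base and 6-base matches follow in order, and that of 6939 genes with none lies farthest right.

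The motif was also looked for outside the 3′ UTR. Among genes with no match in the 3′ UTR, 248 held the whole motif in the coding sequence. Their mean log2 fold change was -0.102 and 27.4% were lower, against 0.0264 and 11.2% lower in 4914 genes with no match there either. The 3′ UTRs of the 248 genes were longer, with a median of 1307.5 bases against 911. The part of length, of the 3′ UTR or of the coding sequence, was not tested. Only 12 genes held the whole motif in the 5′ UTR alone, with a mean of 0.183. CYB5R4 is the listed gene with the motif in both its coding sequence and its 3′ UTR.

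Ranked by log2 fold change among the 398 genes with the whole motif, SERBP1 was 1st, CYB5R4 3rd, EIF4H 7th, PEA15 20th, ATP1B3 22nd, TMEM183A 26th, AKIRIN1 31st, SRPK1 33rd and IDS 38th. The listed genes are thus not all the lowest ones: 29 other genes ranked at or above IDS. At the edge of the list, IDS and the next gene outside it, PDHB (39th), had the same log2 fold change of -0.86. The other 389 genes had a mean of -0.244 and a median of -0.187, with 146 lower and 19 higher, and the highest reached 0.85, so that holding the motif did not by itself go with a lower level in each gene.

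All 9 genes were lower in both shELOVL5 libraries than in either shNC library. All 9 passed as lower, where 11.2% of tested genes were called lower and 30.1% had non-overlapping libraries with shELOVL5 lower, but the choice of the genes fixed both counts and nothing is read from them. Their median log2 fold change was -1.09, against 0.0062 over all tested genes. Among the falls of all tested genes they ranked from 41st (SERBP1) to 728th (IDS). Within a group the libraries of a gene differed by at most 1.14-fold, while the lowest shNC library was at least 1.76-fold above the highest shELOVL5 library.

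SERBP1 and EIF4H act on messenger RNA at the ribosome. SERBP1 (ENSG00000142864, chromosome 1, 67407810 to 67430415, minus strand) encodes an mRNA-binding protein that sits in the mRNA channel of idle ribosomes. It had 98.0 and 106 CPM (1712 and 1758 counts) in the shELOVL5 libraries, against 499 and 500 CPM (8469 and 8019 counts) in the shNC libraries. The shNC libraries were almost identical, and both shELOVL5 libraries lay near 20.5% of them. The log2 fold change was -2.29 (SE 0.0496), 4.89-fold lower, the same size as that of ELOVL5 itself, and it ranked 41st among the falls of all tested genes.

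EIF4H (ENSG00000106682, chromosome 7, 74174245 to 74197101, plus strand) encodes a cofactor of the eIF4A helicase, which unwinds the 5′ ends of messenger RNAs before the ribosome binds. Its level was 196 and 185 CPM in shELOVL5, against 539 and 520 CPM in shNC. Both shELOVL5 libraries were far below both shNC libraries. The gene was 2.78-fold lower (log2 fold change -1.48, SE 0.0446), which left 36.0% of its shNC level.

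SRPK1 (ENSG00000096063, chromosome 6, 35832966 to 35921342, minus strand) encodes a kinase that phosphorylates SR proteins, the splicing factors rich in arginine and serine. It had 94.6 and 89.8 CPM in shELOVL5 and 172 and 173 CPM in shNC. The spread within each group was small beside the gap between groups. Its log2 fold change was -0.90 (SE 0.0549), 1.87-fold lower.

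CYB5R4 (ENSG00000065615), the gene with the fewest counts of the 9, encodes a reductase that joins a cytochrome b5 domain to a flavin domain and passes electrons from NADH. It had 13.3 and 14.6 CPM (232 and 241 counts) in shELOVL5, against 49.7 and 48.5 CPM (845 and 778 counts) in shNC. Levels in both shELOVL5 libraries were well under those in shNC. Its log2 fold change was -1.82, 3.53-fold lower, and its SE of 0.11 was the largest of the 9 genes. The gene lies at chromosome 6, 83859643 to 83967424, on the plus strand.

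IDS (ENSG00000010404, chromosome X, 149476990 to 149521096, minus strand) encodes the lysosomal iduronate 2-sulfatase, which takes part in the breakdown of heparan and dermatan sulfate and is deficient in Hunter syndrome. Its level was 65.4 and 67.8 CPM in shELOVL5 and 120 and 122 CPM in shNC. The groups did not overlap, and this was the smallest change of the 9, at a log2 fold change of -0.86 (SE 0.0617), which left 55.1% of the shNC level.

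ATP1B3 and TMEM183A encode membrane proteins. ATP1B3 (ENSG00000069849, chromosome 3, 141876124 to 141926514, plus strand), the beta 3 subunit of the sodium and potassium pump, had 60.3 and 60.8 CPM in shELOVL5, against 138 and 121 CPM in shNC. The shNC libraries lay apart by 1.14-fold, the highest ratio within a group for the 9 genes, and both were above shELOVL5. The log2 fold change was -1.09 (SE 0.0736), 2.14-fold lower. TMEM183A (ENSG00000163444, chromosome 1, 203007386 to 203024848, plus strand), a predicted transmembrane protein gene, had 74.7 and 68.5 CPM in shELOVL5 and 143 and 141 CPM in shNC. Its shELOVL5 libraries were close to 50.5% of the shNC mean, with a log2 fold change of -0.98 (SE 0.0633).

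PEA15 (ENSG00000162734) encodes a small adaptor with a death effector domain, which holds the ERK kinases in the cytoplasm and binds FADD and caspase-8. It had 41.7 and 42.5 CPM in shELOVL5, against 93.2 and 87.0 CPM in shNC. The shELOVL5 libraries were nearly equal and lower than both shNC libraries, with a log2 fold change of -1.10 (SE 0.0773). PEA15 lies at chromosome 1, 160205337 to 160215376, plus strand. AKIRIN1 (ENSG00000174574, chromosome 1, 38991223 to 39006059, plus strand) encodes a nuclear protein whose relative AKIRIN2 links transcription factors to chromatin remodelling. It had 76.7 and 72.0 CPM in shELOVL5 and 136 and 143 CPM in shNC. Neither shELOVL5 library came near those of shNC, and the log2 fold change was -0.91 (SE 0.0628).

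**Figure D4:**
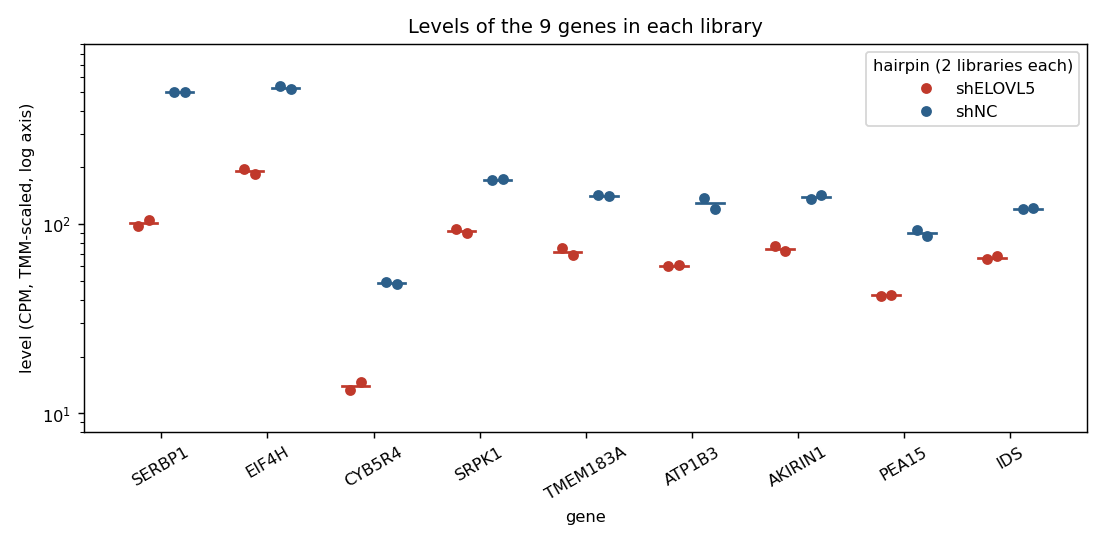
Level of each of the 9 genes in each library (TMM-scaled CPM, log axis), with shELOVL5 left of shNC, points for single libraries and lines for means (n = 2 each). In every gene both shELOVL5 points lie below both shNC points, with the widest gap in SERBP1, at 98.0 and 106 against 499 and 500 CPM.

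Levels per length were compared as TPM (counts divided by gene length and scaled to a common total), from the summed exon length of each gene. In shELOVL5 cells the order was EIF4H (230 ± 6.53 TPM), AKIRIN1 (105 ± 3.63), ATP1B3 (90.5 ± 1.47), TMEM183A (68.7 ± 3.52), PEA15 (58.0 ± 1.46), SRPK1 (53.2 ± 1.40), SERBP1 (51.4 ± 3.53), IDS (27.7 ± 0.999) and CYB5R4 (5.59 ± 0.429; SD, n = 2 for each). In shNC cells it was EIF4H (637 ± 10.9 TPM), SERBP1 (250 ± 2.72), AKIRIN1 (195 ± 9.37), ATP1B3 (192 ± 15.8), TMEM183A (135 ± 0.168), PEA15 (123 ± 4.86), SRPK1 (99.0 ± 1.56), IDS (50 ± 1.23) and CYB5R4 (19.6 ± 0.174). SERBP1 was thus 7th of the 9 in shELOVL5 and 2nd in shNC, and the remaining genes kept their order. Neighbours whose libraries overlapped were SRPK1 and SERBP1 in shELOVL5, and AKIRIN1 and ATP1B3 in shNC. Against all tested genes, EIF4H stood at the 96.3rd percentile in shELOVL5 and the 99.1st in shNC, and CYB5R4 at the 25.8th and the 49.8th.

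Near-identical copies make some of these values uncertain, since reads may be split between a gene and its processed pseudogenes. Such copies held few counts. SERBP1P1 had 36 and 54 counts in shELOVL5 and 162 and 139 in shNC, SERBP1P5 had 9 and 22 against 138 and 95, and EIF4HP1 had 35 and 21 against 88 and 92. TMEM183BP held the largest share, 4.87% of the TMEM183A counts, with 64 and 60 counts in shELOVL5 and 119 and 104 in shNC. Summing each gene with its copies gave a log2 fold change of -2.28 for SERBP1 and left the other 8 values as they were at 2 decimals. The sources used here do not say whether counting used strand, so reads of ATP1B3-AS1 (14 and 7 counts in shELOVL5, 3 and 5 in shNC) and of LHFPL5, which overlaps SRPK1 (13 and 8 in shELOVL5, 18 and 19 in shNC), cannot be told apart from those of the genes they overlap. AC244197.3, which overlaps IDS on the same strand, had 50 and 12 counts in shELOVL5 and 6 and 30 in shNC.

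Close relatives of the 9 genes moved in both directions. Of 15 relatives 13 were tested, of which 2 were lower, 1 was higher and 10 did not pass, where 11.2% of tested genes were lower and 9.22% higher. CYB5R3, the main NADH-cytochrome b5 reductase, fell, with 97.5 ± 1.21 CPM in shELOVL5 against 136 ± 4.00 CPM in shNC (log2 fold change -0.48, SE 0.0565, adjusted p = 2.3e-04). It holds the whole motif in its 3′ UTR, as does CYB5RL (-0.39, adjusted p = 0.14), and the remaining 13 relatives hold no match. EIF4B, the gene of another eIF4A cofactor, fell without any match, with 423 ± 1.04 CPM in shELOVL5 and 644 ± 1.23 CPM in shNC (log2 fold change -0.61, adjusted p = 2.17e-06). HABP4, the nearest relative of SERBP1, rose, with 33.3 ± 0.28 CPM in shELOVL5 against 24.8 ± 1.14 CPM in shNC (0.43, adjusted p = 0.018). That call was lost without shELOVL5 replicate 1 or 2 (adjusted p = 0.106 for each) and without shNC replicate 2 (0.0843).

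The relatives that did not pass were spread on both sides of zero. Log2 fold changes were 0.0305 for SRPK2 (adjusted p = 0.781), 0.0957 for AKIRIN2 (0.458), -0.28 for ATP1B1 (0.421) and -0.0814 for CYB5R1 (0.667). SRPK3, at 0.55, had a wide error (SE 0.301, adjusted p = 0.242). DEDD and DEDD2, which share the death effector domain with PEA15, were at 0.0945 and 0.0418, and the sulfatase genes ARSA and GALNS at -0.12 and -0.15. Those of CYB5R1, SRPK2, DEDD2 and ARSA changed sign in at least 1 fit that left out a library. CYB5R2 had 0 counts in every library and ATP1B2 was under the filter.

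**Figure D5:**
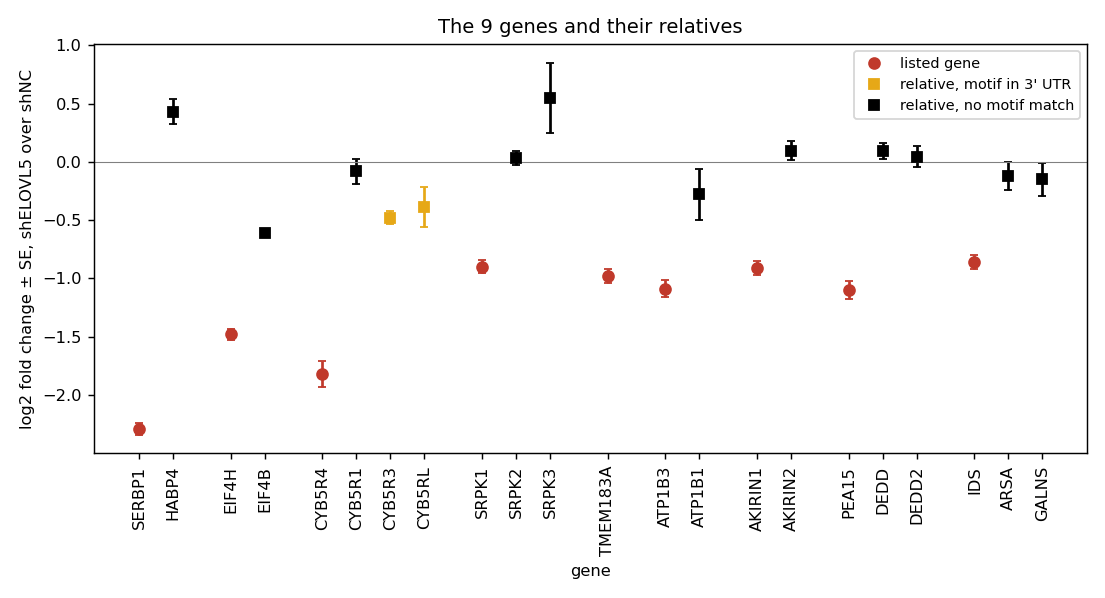
Log2 fold change (shELOVL5 over shNC) with its SE, from 2 libraries per group, for the 9 genes (circles) and their 13 tested relatives (squares). The circles lie between -2.29 and -0.86, and the squares between -0.61 and 0.55, with relatives that hold the motif in a separate colour.

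Genes that work with the 9 moved in both directions. Of 143 tested partners on 9 lists, 36 fell and 20 rose (39.2% called), with a median log2 fold change of -0.0254 against 0.0062 over all tested genes. Of all tested genes 20.4% were called, and among the 10125 protein-coding genes of the motif comparison, which average 8 CPM or more, 16.7% were lower and 12.9% higher. Partners with the whole motif numbered 11, of which 5 fell and 2 rose (median -0.26). A shorter match was held by 38, of which 10 fell and 5 rose, and of 94 with none 21 fell and 13 rose (median -0.0186). Without shELOVL5 replicate 1, and without replicate 2, 23 partners fell and 9 rose in all.

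Around translation, EEF2, the elongation factor that SERBP1 clamps on idle ribosomes, fell, with 1393 ± 7.42 CPM in shELOVL5 against 2642 ± 73.9 CPM in shNC (log2 fold change -0.92, adjusted p = 4.37e-08). It holds the first 7 bases of the motif in its 3′ UTR. On the list of ribosome dormancy and SERBP1 partners 5 of 11 fell and 2 rose (median -0.21), among them the ribosomal scaffold gene RACK1 (-0.30, adjusted p = 1.66e-04) and IFRD2 (-0.63, adjusted p = 4.95e-04), the gene of a factor of idle ribosomes, both lower. Without shELOVL5 replicate 1, 3 fell and 1 rose; both rises were lost without shELOVL5 replicate 2, and 1 was lost without shNC replicate 2. Of 17 genes of the eIF4A helicase, its cofactors and the cap complex, 5 fell and 2 rose (median 0.0508). Besides EIF4B, EIF4EBP1, the gene of an inhibitor of the cap complex, fell (-0.76, adjusted p = 0.00321) with no match. Its relative EIF4EBP2, which holds the first 7 bases of the motif in its 3′ UTR, rose (0.58, adjusted p = 7.37e-06). The helicase gene EIF4A2 rose as well (0.27, adjusted p = 0.00103). On this list 3 fell without shELOVL5 replicate 1, without shNC replicate 1 or with no low-count filter, and 2 without shELOVL5 replicate 2.

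On the list of SR protein kinases and SR proteins, 7 of 23 genes fell and 1 rose (median -0.0361). The list also holds phosphatase genes and an importin gene. The rise was that of the phosphatase gene PPP1CA (0.21, adjusted p = 0.00595), and no SR kinase or SR protein gene passed as higher. SRSF2 (-0.50, adjusted p = 3.05e-05), SRSF3 (-0.36, adjusted p = 1.06e-04) and SRSF6 (-0.33, adjusted p = 2.12e-04), all splicing factor genes with no match in the 3′ UTR, fell. Only 4 of the list fell without shELOVL5 replicate 1, without replicate 2 or with no low-count filter. The rise was lost without either shELOVL5 library, while 3 rose without shNC replicate 1, and 2 without shNC replicate 2, by DESeq2 and with a replicate block.

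Of 13 genes of cytochrome b5 and the enzymes it serves, 5 fell and 1 rose (median -0.13). Apart from CYB5R3, the desaturase genes SCD (-0.30, adjusted p = 3.05e-04), which holds the whole motif, and FADS1 (-0.35, adjusted p = 5.81e-04), which holds none, fell. The rise was that of another desaturase gene, SCD5 (0.43, adjusted p = 0.00344), which holds no match. Without shELOVL5 replicate 1, 3 fell and the rise was lost. Lysosomal genes of glycosaminoglycan breakdown, the pathway of IDS, were 3 lower and 3 higher of 17 (median 0.11), with the sulfatase modifier gene SUMF2 (-0.49, adjusted p = 1.51e-04) and the hyaluronidase gene HYAL2 (-0.55, adjusted p = 0.0054) lower and the protective protein gene CTSA higher (0.51, adjusted p = 6.56e-04). Only 1 of that list rose without shELOVL5 replicate 1 or 2.

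Of 20 listed subunits of the sodium and potassium pump, to which ATP1B3 belongs, and of related pumps, 6 were tested, of which 1 fell and 1 rose (median -0.0999). The fall was lost without shELOVL5 replicate 1, shELOVL5 replicate 2 or shNC replicate 1.

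For PEA15, 3 of 18 partners in ERK and death receptor signalling fell and 5 rose (median 0.0888). RPS6KA2, the gene of an ERK-activated kinase, was lower (-0.82, adjusted p = 7.12e-04). MAP2K1, a kinase gene of the same pathway, rose (0.26, adjusted p = 0.011), but not without shELOVL5 replicate 1 (adjusted p = 0.0506) or 2 (0.112). On this list 1 rose without either shELOVL5 library, 2 without shNC replicate 1 and 3 with no low-count filter, and 1 fell without shNC replicate 1.

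Of 15 tested genes of AKIRIN2, importin 9 and the BAF chromatin remodelling complex, 3 fell and 1 rose (median -0.064). The rise was that of the importin 9 gene IPO9 (0.17, adjusted p = 0.0355), which holds the whole motif in its 3′ UTR. The BAF subunit genes SMARCD1 (-0.72, adjusted p = 3.33e-06) and SMARCC1 (-0.30, adjusted p = 7.99e-04) fell, as did ARID1A (-0.17, adjusted p = 0.00786), though not without shELOVL5 replicate 1 (0.0542) or 2 (0.0696). The single rise was lost without any 1 of the 4 libraries, by DESeq2 and with no low-count filter, and 2 rose with scaling by total counts.

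The machinery that makes and uses small RNAs was measured as well, since hairpins pass through it in both groups. Of 23 genes 4 fell and 4 rose (median -0.0333). TNRC6C, the gene of an Argonaute partner in silencing, was higher, with 162 ± 2.43 CPM in shELOVL5 against 110 ± 5.07 CPM in shNC (log2 fold change 0.56, adjusted p = 7.24e-05). DICER1, which encodes the enzyme that cuts hairpins, rose as well, with 208 ± 17.3 CPM in shELOVL5 and 142 ± 7.91 CPM in shNC (0.55, adjusted p = 3.29e-04). DICER1 holds 6 bases of the motif in its 3′ UTR. CNOT6, the gene of a deadenylase that shortens poly(A) tails, fell (-0.53, adjusted p = 6.77e-04) and holds the last 7 bases of the motif. The relatives of TNRC6C did not follow it: TNRC6A (-0.31, adjusted p = 0.00529) and TNRC6B (-0.26, adjusted p = 0.0268) fell. TNRC6B holds the whole motif, and TNRC6A and TNRC6C hold no match. The Argonaute gene AGO4 (-0.55, adjusted p = 0.00208) fell and holds the whole motif. XRN1 (0.37, adjusted p = 0.00846), which holds the first 7 bases, and AGO1 (0.28, adjusted p = 0.00466), with no match, rose.

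The genes whose levels over the 4 libraries were most like those of SERBP1 and EIF4H were found among 9795 genes by the Euclidean distance between centred log2 CPM values. For SERBP1 these were SLC7A11, a cystine transporter gene (distance 0.0654), ELOVL5 (0.114) and the chemokine receptor gene CCR2 (0.185), and its nearest listed gene was CYB5R4 (0.479). EIF4H was nearest to PSAT1, a serine synthesis gene (0.0588), TSPAN7, a tetraspanin gene (0.0698), and CFL1, the gene of the actin-severing cofilin (0.0826), and then, among listed genes, to CYB5R4 (0.368). TSPAN7 holds the whole motif, SLC7A11, CCR2 and CFL1 hold 7 bases of it, and PSAT1 holds no match. Over 4 libraries in 2 groups this distance is small for any pair of genes with a like difference between the groups.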

How the data were processed

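The authors deposited 1 table of whole-number read counts per Ensembl gene, not normalized, for 4 libraries (2 per hairpin). Per the labels' protocols, total RNA was extracted with TRIzol and made into Illumina TruSeq RNA libraries. Per the submitters' processing notes, HISAT2 2.2.0, StringTie and hg38 were used. Not given in the sources used here were the annotation release, the counting step and whether it used strand. Libraries were matched to groups and replicates by their titles.

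Counts were fitted with edgeR 4.0.16 in R 4.3.3 (filterByExpr with a minimum count of 10, TMM, two-sided quasi-likelihood test with robust=TRUE, group as the only term). Benjamini-Hochberg adjustment ran over 17461 genes, with a threshold of 0.05. Fold changes are shELOVL5 over shNC, and SE is the absolute log2 fold change divided by the square root of F. Total counts of 16254002 to 17338719 put 3 counts at 0.172 to 0.187 CPM. The fit and the hexamer comparison were tested on simulated data.

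The hexamer comparison used the longest 3′ UTR in GENCODE 29 of each protein-coding gene with a mean of at least 8 CPM. Genes were named by a rule: the 9 genes, ELOVL5 and PLCG1, the listed relatives, up to 3 genes per partner list with the smallest p among those that passed and reached a mean of 5 CPM, and the 3 nearest genes to SERBP1 and to EIF4H. TACCGC, PDHB, the pseudogenes, the overlapping genes, EIF4EBP1, IPO9, PPP1CA, SCD5, TNRC6A and TNRC6B were named outside it. Some genes that the rule names are not reported here. Members, lists and relatives were chosen with earlier results of these data known. Alternatives were RLE and total-count scaling, other filters, DESeq2 1.42.0, a replicate block, sums with copies, other 3′ UTR choices and leaving out each library.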

Additional observations from a re-analysis of the deposited data

How the results depend on the processing

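All 9 genes passed as lower under each of the 10 refits (other scalings, filters, DESeq2, a replicate block and leaving out each library), and none of their 9 log2 fold changes moved by more than its spread between libraries. Their median of -1.09 ranged from -1.15 to -1.0 when 1 library was left out. The 9 genes were chosen as lower in these same libraries, which every refit reuses. Their passing in any refit was thus all but fixed by the choice, and nothing is read from it. Over all genes, 1952 were lower and 1610 higher. With no low-count filter 1344 and 899 passed, and by DESeq2 1609 and 1190. Leaving out 1 library gave 1176 to 1616 lower and 696 to 1347 higher genes, and the partner lists together gave 23 to 32 lower (36 with all libraries) and 9 to 18 higher (20 with all libraries). The lowest of these counts came without shELOVL5 replicate 1 or 2. The cause was not tested.

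The hexamer difference of -0.112 was -0.102 among genes averaging 20 CPM or more, -0.119 with the 3′ UTR of the transcript with the longest coding sequence, and -0.118 to -0.108 when 1 library was left out. Genes with the whole motif differed by -0.274 from genes with no match, a comparison chosen after seeing the data. The labels number the replicates alike in both groups, but with 2 pairs and a correlation of -0.0148 between same-numbered deviations the samples share only a number. With the replicate as a block, 1902 genes were lower and 1551 higher, the hexamer difference was -0.113, and all 9 genes passed as lower. With 2 libraries per group, small changes in genes of few counts could not be seen.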

Other observations

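Some genes with the whole motif outside the 9 had changes as large, and those named here were chosen after their values were seen. ADCYAP1, the gene of a neuropeptide, had the 2nd lowest log2 fold change of the 398 (-1.91), though at a mean of only 11.8 CPM. SLC38A1, which encodes a glutamine transporter, was at -1.53 with a mean of 204 CPM. ATP6V1H, a subunit gene of the lysosomal proton pump, was at -1.27, the chemokine receptor gene CCR4 at -1.16 and the surface enzyme gene CD38 at -1.11. VBP1, the gene of a prefoldin subunit, had the same value of -1.11. How much of each change goes with the motif was not tested.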
